A study of Mus musculus with 6 samples.

Results

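The semaphorins, plexins and neuropilins were taken by name as the protein-coding genes of semaphorin classes 3 to 7, plexins A to D and the neuropilins Nrp1 and Nrp2. This gave 31 genes of 55802 listed, namely 20 semaphorins, 9 plexins and 2 neuropilins. Their RNA was followed in primary neural stem cells from the subventricular zone (SVZ) of adult wild-type C57BL/6 mice. The cells were kept in a neuronal basal medium with B27 and infected for 24 h. Control cells received ADV-GFP, a viral vector for green fluorescent protein (3 libraries). SETD4 OE cells received ADV-SETD4-GFP, which carries SETD4 as well, an enzyme that methylates lysine (3 libraries). Both groups therefore carried virus and the fluorescent protein. The labels do not say whether the libraries of a group came from separate animals or cultures, so p-values measure the spread between these libraries only.

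Semaphorins are guidance proteins that share the sema domain. Class 3 members are secreted, those of classes 4 to 6 span the membrane, and Sema7a is held in it by a lipid anchor. Plexins are their main receptors and carry an intracellular domain that switches off small GTPases of the Ras and Rap type. Neuropilins are co-receptors for most class 3 semaphorins and also bind vascular endothelial growth factors. In the brain these genes steer axons, migrating neuroblasts and oligodendrocyte precursors, and plexin-B2 is known for its part in proliferation and migration of SVZ neuroblasts.

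Setd4 itself was at 0.952, 0.972 and 1.53 FPKM (fragments per unit of gene length and of library size) in control replicates 1 to 3 and at 296, 346 and 333 FPKM in the SETD4 OE replicates (difference of mean log2(FPKM + 1) 7.25, limma adjusted p = 3.283e-07), which matches the labels. Viral and endogenous reads were not separated. All log2 differences and log2 fold changes here are SETD4 OE minus control on that log2(FPKM + 1) scale unless another is named, and they understate changes of low genes. Libraries held 14924273 to 18078717 reads. The neural stem cell markers Sox2, Nes, Vim, Fabp7, Pax6 and Prom1 summed to 2192 to 2406 FPKM in the controls and 1707 to 1798 FPKM in SETD4 OE. Of these Sox2, Pax6 and Prom1 rose and Nes, Vim and Fabp7 fell, the sum being mostly Fabp7 and Vim. All 5 cell cycle markers fell. Control replicate 1 stood somewhat apart from the other controls. The chi-square per degree of freedom against them was 12.01 and 19.03, where those 2 differed by 4.61. Without it 9 members rose and 7 fell, against 8 and 7 with all libraries. Of 12994 genes tested with limma, 60.0% changed at an adjusted p under 0.05, 26.0% upwards and 33.9% downwards, and the members have to be read against that background.

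The clearest change was in the plexins. Plxnb3, Plxnc1 and Plxnb1 rose 6.66-fold, 3.93-fold and 2.48-fold as ratios of mean FPKM, while Plxna1 and Plxnd1 were each 1.16-fold lower, calls that were lost with equal sums, quantile normalization and limma-voom. Among the ligands the most abundant genes went different ways: Sema4b fell 1.503-fold, Sema6d rose 1.14-fold, Sema5b rose 1.49-fold, and Sema6a, at 13.96 and 14.7 FPKM, did not pass. Sema6c rose 2.62-fold and Sema3a, the classical repellent, fell 2.48-fold. Of the co-receptors Nrp1 fell 1.47-fold, and Nrp2, with means of 1.60 and 1.69 FPKM, did not pass.

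To be tested a gene had to average 1 FPKM or more, which 21 of 31 members did. Of these 8 rose (38.1%, background 26.0%), 7 fell (33.3%, background 33.9%) and 6 did not pass, so that 71.4% were called where the background was 60.0%. Plxnb3, Plxnc1 and Plxnb1 were called with a difference past 1 on the log2 scale, as were 9.06% of all tested genes. The split moved with the scaling of the libraries, as did that of all genes. With libraries scaled to equal sums 10 members rose and 4 fell, beside 29.9% and 29.0% of all tested genes. After scaling by the upper quartile 10 rose and 5 fell, beside 29.1% and 29.8%, and after quantile normalization 9 and 4, beside 28.7% and 29.0%. Scaling by the median of ratios gave 7 and 7, beside 25.1% and 35.4%. In limma-voom on reads recovered from the FPKM 12 rose and 4 fell, beside 31.4% and 29.8%. Groups did not overlap for 18 of the 21, or 85.7%, beside 66.0% of all tested genes. For all 31 members the number was 24, beside 38.0% of 30911 genes with any read. Only 12994 of those genes reached the threshold, against 21 of the 31 members, so these sets are unlike in level. The median log2 difference was 0.18 over the 21 members and -0.06 over all tested genes. Sema6c and Sema3c passed the expression threshold only through SETD4 OE and Sema3a only through the controls, so these counts describe the members and support nothing about the family.

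**Figure D1:**
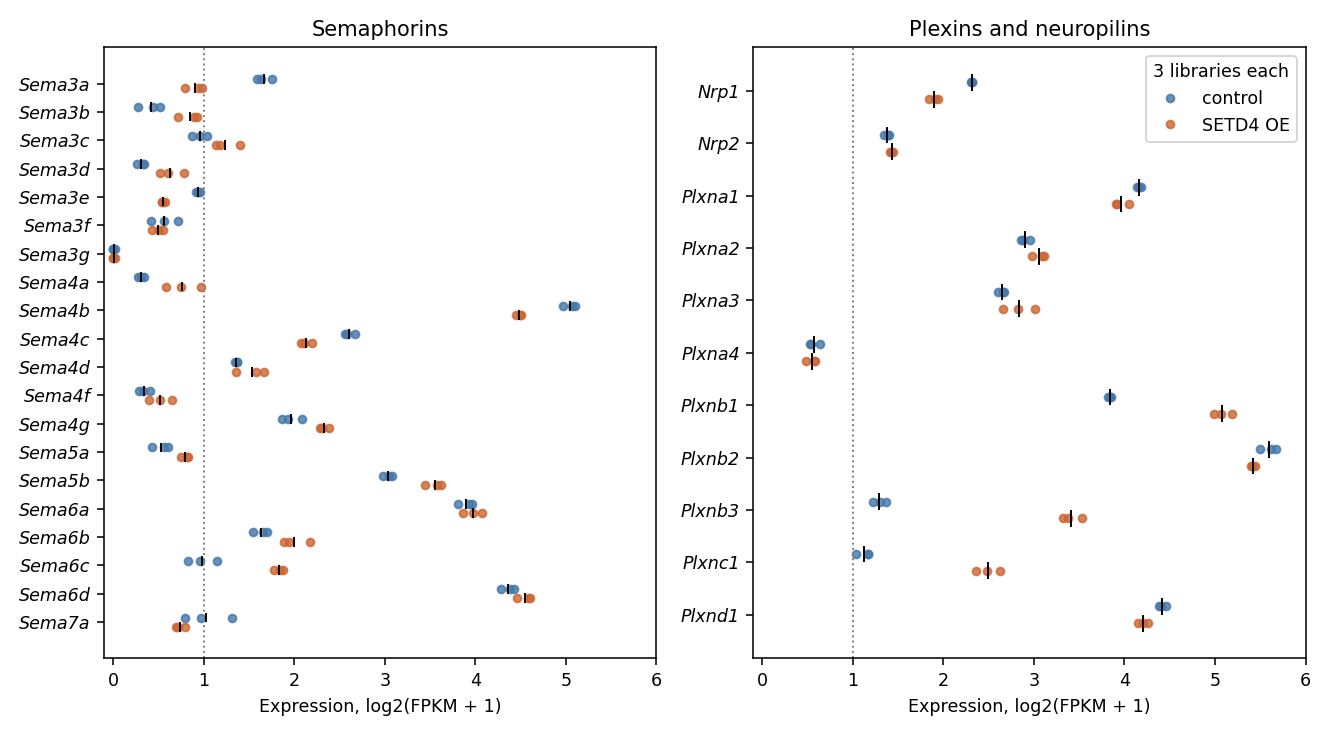
Expression of all 31 members, as log2(FPKM + 1), in each of the 3 control (blue) and 3 SETD4 OE (orange) libraries, with short black lines for group means and a dotted line at 1 FPKM. Plxnb3, Plxnc1, Plxnb1 and Sema6c lie to the right in SETD4 OE without overlap, Sema3a, Sema4b, Sema4c and Nrp1 lie to the left, and 10 members have a mean below 1 FPKM.

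Among the receptors the B plexins came first by level. Plexin-B2, a receptor for class 4 semaphorins such as Sema4c, was the most abundant member in both groups. Plxnb2 (chromosome 15, 89039752 to 89064991, minus strand, mm39) was at 44.3, 48.0 and 49.99 FPKM in the controls and at 42.4, 41.1 and 41.5 FPKM in SETD4 OE. The SETD4 OE libraries lay just below the lowest control. The log2 difference was -0.18 (SE 0.06, limma adjusted p = 0.0357), and the call was lost without control replicate 2 (adjusted p = 0.0868) or 3 (0.136), without SETD4 OE replicate 1 (0.0721), 2 (0.0915) or 3 (0.0895). It was also lost with no filter on low genes (0.0548), with equal sums (0.186), with the upper quartile (0.118) and in limma-voom (0.157), and with quantile normalization the log2 difference was 0.0031.

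Plexin-B1 is the receptor of Sema4d. Plxnb1 (chromosome 9, 108924457 to 108948985, plus strand) was at 13.1, 13.3 and 13.4 FPKM in the controls and at 35.4, 30.8 and 32.5 FPKM in SETD4 OE. The controls were tightly grouped and every SETD4 OE library lay well above them. The log2 difference was 1.25 (SE 0.06, limma adjusted p = 7.872e-06), resting on 2013 to 5361 reads per library. Plxnb1 went from rank 7 to rank 2 among the members by mean FPKM.

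Plexin-B3 binds Sema5a and is best known from the oligodendrocyte lineage. Plxnb3 (chromosome X, 72800696 to 72816120, plus strand) was at 1.33, 1.57 and 1.46 FPKM in the controls and at 10.6, 9.03 and 9.39 FPKM in SETD4 OE. This was the largest change of any tested member, and the groups were far apart. The log2 difference was 2.12 (SE 0.08, limma adjusted p = 2.902e-06) and ran from 2.06 to 2.18 over the alternatives on the same scale. It was 2.65 with a pseudocount of 0.1 and 2.81 in limma-voom. By mean FPKM it moved from above 9.83% of tested genes in the controls to above 60.1% in SETD4 OE.

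Markers of the oligodendrocyte lineage moved beside Plxnb3. Of the oligodendrocyte markers, Cnp rose from 33.4 ± 1.52 to 61.9 ± 3.40 FPKM, Mbp from 2.40 ± 0.102 to 5.84 ± 0.732 FPKM and Mag from 0.570 ± 0.0172 to 1.63 ± 0.373 FPKM. Mog and Mobp were too low to be tested, with control means of 0.368 and 0.537 FPKM and SETD4 OE means of 1.34 and 1.25 FPKM. Of 5 precursor markers 4 rose (Sox10, Pdgfra, Gpr17 and Cspg4) and Olig2 fell, so that their sum went from between 311 and 369 to between 149 and 164 FPKM. None of the markers named here was at 0 in any library. Their part in the change of Plxnb3 was not tested. In RNA from whole cultures, more cells of a type and more RNA per cell cannot be told apart.

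Plexin-C1 is the receptor of Sema7a. Plxnc1 (chromosome 10, 94626728 to 94780697, minus strand) was at 1.24, 1.05 and 1.24 FPKM in the controls and at 4.59, 5.16 and 4.14 FPKM in SETD4 OE. All SETD4 OE libraries were far above the highest control. The log2 difference was 1.37 (SE 0.09, limma adjusted p = 2.419e-05) and 2.06 with limma-voom, which works on reads and shrinks low values less. Its ligand Sema7a, which also binds beta-1 integrins, was below the threshold. Sema7a was at 0.738, 1.48 and 0.953 FPKM in the controls and at 0.730, 0.644 and 0.619 FPKM in SETD4 OE, so that every SETD4 OE library was just below the lowest control, but without the filter it did not pass (adjusted p = 0.243, limma). Microglia and macrophages are also known to express Plxnc1. Their 8 markers were all below the threshold and summed to 0.826 to 1.22 FPKM in the controls and 1.74 to 2.12 FPKM in SETD4 OE, with Itgam and Aif1 at 0 in every control and Cx3cr1 at 0 in every SETD4 OE library. Their part in the change of Plxnc1 was not tested.

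The upstream sequences of the 3 plexins that rose are shown because they differ in kind. They are the 250 bases before the RefSeq start of each gene, in GRCm38.p6, an earlier build than the mm39 of the expression tables. Capitals mark the SOX-type motifs ACAAAG and ACAATG and an interferon-type motif (GAAA, any 2 bases, GAAA), each searched on both strands, with no overlap between the matches.
Plxnb3, chrX:73756853-73757102, plus strand: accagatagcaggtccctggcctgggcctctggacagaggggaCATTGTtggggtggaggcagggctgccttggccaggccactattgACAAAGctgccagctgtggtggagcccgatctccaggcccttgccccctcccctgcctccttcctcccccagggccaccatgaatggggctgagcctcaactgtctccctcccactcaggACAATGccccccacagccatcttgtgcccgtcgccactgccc
Plxnc1, chr10:94944846-94945095, minus strand: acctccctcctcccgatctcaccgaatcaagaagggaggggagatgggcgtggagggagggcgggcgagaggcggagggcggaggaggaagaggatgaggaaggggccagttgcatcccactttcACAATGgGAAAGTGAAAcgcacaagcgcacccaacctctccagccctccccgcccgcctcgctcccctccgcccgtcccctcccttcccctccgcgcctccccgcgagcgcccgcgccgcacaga
Plxnb1, chr9:109095186-109095435, plus strand: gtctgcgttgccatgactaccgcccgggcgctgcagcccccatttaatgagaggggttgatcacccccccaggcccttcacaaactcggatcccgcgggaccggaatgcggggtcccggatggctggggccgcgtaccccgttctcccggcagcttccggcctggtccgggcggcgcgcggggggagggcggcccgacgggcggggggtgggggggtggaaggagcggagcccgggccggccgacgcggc

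The Plxnb3 window held 3 SOX-type matches, which begin 207 (on the reverse strand), 162 and 42 bases before the start, and 3 CpG dinucleotides. The Plxnc1 window held ACAATG beginning 125 bases before the start and the interferon-type motif beginning 118 bases before it, with 22 CpG dinucleotides. The Plxnb1 window held none of the 3 motifs and 30 CpG dinucleotides. Over 32851 RefSeq windows of the same length ACAAAG was found in 16.5%, ACAATG in 10.7% and the interferon-type motif in 2.98%, and the median number of CpG was 6. In the 37 windows of the 26 members with a listed start, ACAAAG and ACAATG were each found in 5 (13.5%) and the interferon-type motif in 2 (5.41%, Plxnc1 and Sema6b). These matches describe letters only, and the other motifs searched, CACGTG and TGANTCA, were in none of the 3 windows shown. CACGTG was in 6.02% and TGANTCA in 6.75% of all windows.

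The A plexins, which pair with neuropilins or bind class 5 and 6 semaphorins directly, changed little. Plxna1 (chromosome 6, 89293296 to 89339602) was at 16.6, 17.2 and 16.9 FPKM in the controls and at 15.6, 14.2 and 13.99 FPKM in SETD4 OE. The groups did not overlap, and the log2 difference was -0.20 (SE 0.06, limma adjusted p = 0.0214). That call was lost without control replicate 2 (adjusted p = 0.0606) or 3 (0.0670), without SETD4 OE replicate 2 (0.0640) or 3 (0.0734), with 3 of 4 scalings and in limma-voom. Plxna2, a receptor of Sema6a, was at 6.74, 6.22 and 6.37 FPKM in the controls and at 7.51, 7.63 and 6.90 FPKM in SETD4 OE, with no overlap, and just missed the threshold (log2 fold change 0.16, adjusted p = 0.0511, limma). Plxna2 passed in 7 of 17 other ways of processing, among them equal sums (adjusted p = 0.0167, limma), limma-voom (0.0044) and leaving out control replicate 1 (0.0429) or SETD4 OE replicate 3 (0.0414). Plxna3 was at 5.37, 5.32 and 5.06 FPKM in the controls and at 7.08, 6.08 and 5.32 FPKM in SETD4 OE. Its groups overlapped, SETD4 OE replicate 3 being level with the controls, and it did not pass (adjusted p = 0.120, limma). Plxna3 did pass without that library (0.0305, limma) and, with all libraries, in limma-voom (adjusted p = 0.0235). Plxna4 was low, at 0.549, 0.447 and 0.441 FPKM in the controls and 0.490, 0.488 and 0.400 FPKM in SETD4 OE, with overlapping groups.

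Plexin-D1, known as the vascular receptor of Sema3e, was the third most abundant member in the controls. Plxnd1 (chromosome 6, 115931772 to 115971966) was at 19.8, 21.0 and 20.1 FPKM in the controls and at 18.1, 16.7 and 17.5 FPKM in SETD4 OE. All SETD4 OE libraries were lower, with a log2 fold change of -0.21 (SE 0.05, limma adjusted p = 0.0138). The adjusted p was 0.0728 with equal sums, 0.449 with quantile normalization and 0.0671 in limma-voom. Endothelial cells are a known source of Plxnd1 and Nrp1. Of their 9 markers Flt1 alone was high enough to be tested, and it fell. The list summed to 4.06 to 4.38 FPKM in the controls and 1.54 to 1.96 FPKM in SETD4 OE, with Cldn5 at 0 in all 6 libraries. Flt1 made up the fall. The other 8 markers summed to 0.677 to 0.809 FPKM in the controls and 0.920 to 1.28 FPKM in SETD4 OE. Of these Erg and Vwf were higher in SETD4 OE without overlap, and Pecam1 and Emcn were lower without overlap. Erg was at 0.0334 ± 0.0431 and 0.272 ± 0.0831 FPKM (limma without a filter, adjusted p = 0.0149). Pecam1 was at 0.111 ± 0.0104 and 0.0498 ± 0.0153 FPKM (adjusted p = 0.0926 in the same fit). The groups of Cdh5, Kdr and Tek overlapped. The part of endothelial cells in the changes of Plxnd1 and Nrp1 was not tested.

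These changes altered the make-up of the plexins. Summed plexin FPKM was 109, 114 and 115 in the controls and 142, 131 and 132 in SETD4 OE. Plxnb1 supplied 11.8 ± 0.209% of this sum in the controls and 24.4 ± 0.778% in SETD4 OE (mean ± SD, n = 3 each). Plxnb3 went from 1.29 ± 0.0795% to 7.16 ± 0.294%, and Plxnc1 from 1.05 ± 0.114% to 3.44 ± 0.430%. The share of Plxnb2 went down from 42.1 ± 1.42% to 30.9 ± 0.868%, that of Plxnd1 from 18.0 ± 0.481% to 12.9 ± 0.305% and that of Plxna1 from 14.99 ± 0.265% to 10.8 ± 0.187%. The shares of these 6 plexins did not overlap between the groups, which was not compared with other genes. Shares are parts of one sum, so a rise of some plexins lowers the shares of the others by itself. Mean FPKM went from 47.4 to 41.7 for Plxnb2, from 20.3 to 17.4 for Plxnd1 and from 16.9 to 14.6 for Plxna1. Those calls were lost with equal sums, quantile normalization and limma-voom, so the lower shares are no separate evidence of a fall. In SETD4 OE there was 0.789 ± 0.0421 times as much Plxnb1 as Plxnb2, against 0.281 ± 0.0140 times in the controls.

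**Figure D2:**
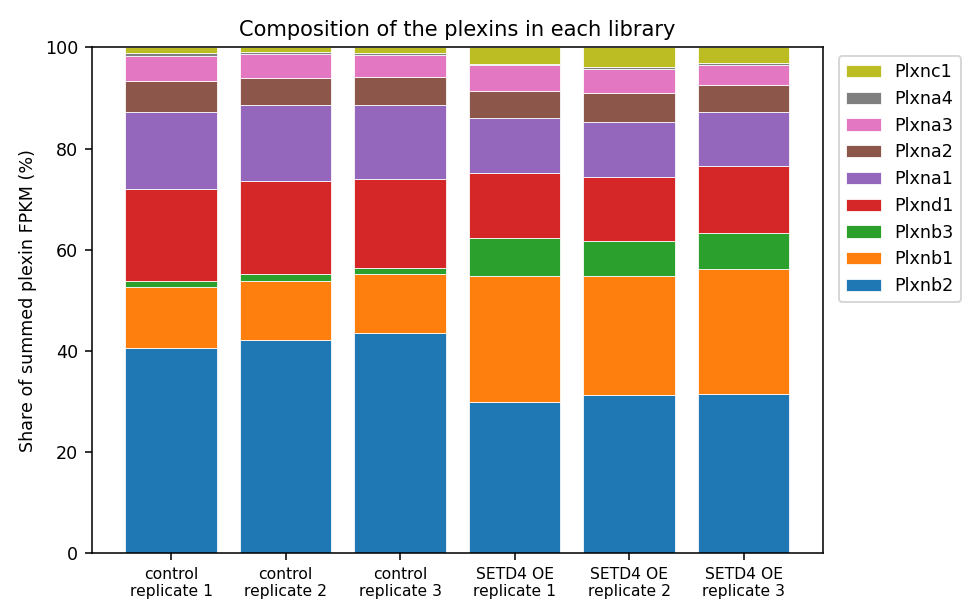
Share of each plexin in the summed plexin FPKM (percent) of each library, with 3 control and 3 SETD4 OE libraries as stacked bars. Plxnb1 and Plxnb3 take a larger part in every SETD4 OE library than in any control, and Plxnb2, Plxnd1 and Plxna1 a smaller one.

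The neuropilins differed from each other. Neuropilin-1 is the co-receptor through which Sema3a acts, and neuropilin-2 that of Sema3f. Nrp1 (chromosome 8, 129085085 to 129229844, plus strand) was at 3.99, 3.99 and 3.95 FPKM in the controls and at 2.74, 2.82 and 2.57 FPKM in SETD4 OE. It fell in all SETD4 OE libraries (log2 fold change -0.42, SE 0.06, limma adjusted p = 9.690e-04). Nrp2 (chromosome 1, 62742444 to 62857854) was at 1.54, 1.62 and 1.63 FPKM in the controls and at 1.68, 1.72 and 1.65 FPKM in SETD4 OE and did not pass (adjusted p = 0.609, limma). The SETD4 OE values of Nrp2 lay just above the controls, and its log2 fold change turned to -0.04 with quantile normalization. There was 2.49 ± 0.0898 times as much Nrp1 as Nrp2 in the controls and 1.61 ± 0.0452 times in SETD4 OE.

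Class 3 semaphorins, the secreted ligands, were low throughout, with a summed level of 4.91 to 5.199 FPKM in the controls and 4.37 to 4.65 FPKM in SETD4 OE. Sema3a, a repellent for axons and for oligodendrocyte precursors, was the highest of them in the controls. Sema3a (chromosome 5, 13175381 to 13652533, plus strand) was at 2.38, 2.11 and 2.01 FPKM in the controls and at 0.909, 0.979 and 0.736 FPKM in SETD4 OE. It fell below 1 FPKM in every SETD4 OE library (log2 fold change -0.76, SE 0.10, limma adjusted p = 5.147e-04, and -1.24 with limma-voom), so ligand and co-receptor, Sema3a and Nrp1, were both lower. Sema3c was at 0.831, 1.05 and 0.942 FPKM in the controls and at 1.26, 1.64 and 1.19 FPKM in SETD4 OE. These groups did not overlap, yet the test was not passed (log2 fold change 0.28, adjusted p = 0.0654, limma). It was passed with equal sums (adjusted p = 0.0404), with the upper quartile (0.0465), without the trend (0.0313) and in limma-voom (0.0079, limma).

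The other class 3 genes had a mean below 1 FPKM and were tested in fits with a lower or no filter. The adjusted p-values given for them are from the limma fit without a filter, where 26.0% of 30911 genes changed, 12.9% upwards and 13.1% downwards. In that fit 4 of the 10 low members passed, 3 higher and 1 lower. Sema3e, the ligand of plexin-D1, was at 0.887, 0.943 and 0.907 FPKM in the controls and at 0.450, 0.450 and 0.485 FPKM in SETD4 OE, on 65 to 154 reads per library. It was lower in each SETD4 OE library (log2 fold change -0.39, limma without a filter, adjusted p = 0.0146). Sema3b was at 0.209, 0.357 and 0.434 FPKM in the controls and at 0.849, 0.647 and 0.905 FPKM in SETD4 OE (limma without a filter, adjusted p = 0.0280). Sema3d was at 0.254, 0.198 and 0.263 FPKM in the controls and at 0.427, 0.517 and 0.712 FPKM in SETD4 OE (limma without a filter, adjusted p = 0.0407). Both were higher in all SETD4 OE libraries. Sema3f, which attracts oligodendrocyte precursors, spanned 0.339 to 0.637 FPKM in the controls and 0.347 to 0.463 FPKM in SETD4 OE, with overlap. Sema3g was close to undetected, with 1 read in each of 2 libraries and 0 in the other 4.

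Class 4 semaphorins, transmembrane ligands that mostly act on B plexins, summed to 40.2 to 43.3 FPKM in the controls and 31.5 to 32.1 FPKM in SETD4 OE. Sema4b, a synaptic and glial member, made up most of that sum and was the most abundant ligand in the controls. Sema4b (chromosome 7, 79836589 to 79876275, plus strand) was at 30.4, 33.4 and 32.6 FPKM in the controls and at 21.6, 21.7 and 20.9 FPKM in SETD4 OE. All SETD4 OE libraries were well below the lowest control, with a log2 fold change of -0.57 (SE 0.06, limma adjusted p = 1.365e-04). Sema4c, a ligand of plexin-B2, was at 4.99, 4.91 and 5.37 FPKM in the controls and at 3.32, 3.19 and 3.57 FPKM in SETD4 OE. It fell in all SETD4 OE libraries (log2 fold change -0.48, SE 0.07, limma adjusted p = 6.646e-04).

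Sema4g went the other way. Sema4g (chromosome 19, 44977540 to 44991836) was at 2.65, 2.82 and 3.24 FPKM in the controls and at 3.87, 4.20 and 3.96 FPKM in SETD4 OE (log2 fold change 0.36, SE 0.08, limma adjusted p = 5.770e-03). Sema4d, the ligand of plexin-B1 made by oligodendrocytes and lymphocytes, was at 1.59, 1.53 and 1.57 FPKM in the controls and at 2.17, 1.99 and 1.56 FPKM in SETD4 OE. SETD4 OE replicate 3 was within the control range and the test was not passed (adjusted p = 0.175, limma). Of the alternatives, only limma-voom on the tested genes called Sema4d (adjusted p = 0.0458). Sema4a, an immune and vascular member, was low at 0.266, 0.210 and 0.233 FPKM in the controls and at 0.492, 0.678 and 0.955 FPKM in SETD4 OE. Every SETD4 OE library was above the controls (limma without a filter, adjusted p = 0.0285). Sema4f spanned 0.215 to 0.321 FPKM in the controls and 0.316 to 0.567 FPKM in SETD4 OE, with overlap, and did not pass.

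Class 5 semaphorins carry thrombospondin repeats beside the sema domain. Sema5b (chromosome 16, 35361515 to 35485102, plus strand) was at 6.89, 7.27 and 7.46 FPKM in the controls and at 11.3, 9.92 and 11.0 FPKM in SETD4 OE. It rose in all SETD4 OE libraries (log2 fold change 0.52, SE 0.07, limma adjusted p = 4.811e-04). Sema5a, the ligand of plexin-B3, was at 0.478, 0.341 and 0.515 FPKM in the controls and at 0.776, 0.758 and 0.678 FPKM in SETD4 OE. The groups did not overlap, the adjusted p was 0.0748 in the limma fit without a filter, and limma-voom without a filter called it (adjusted p = 3.691e-04). That fit called 30.8% of genes, 18.1% higher and 12.7% lower, and of the 31 members 15 higher and 5 lower.

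Class 6 semaphorins are transmembrane ligands of A plexins. Sema6d, a ligand of plexin-A1, was at 20.5, 18.5 and 19.8 FPKM in the controls and at 23.0, 23.4 and 21.0 FPKM in SETD4 OE, where it became the most abundant ligand. The rise was small (log2 fold change 0.19, SE 0.07, limma adjusted p = 0.0415) and the call was lost without control replicate 2 (adjusted p = 0.121) or 3 (0.0947) or SETD4 OE replicate 1 (0.121) or 2 (0.118), and with no filter, with median-of-ratios scaling and without the trend. Sema6a, a ligand of plexin-A2 and plexin-A4, was at 14.6, 13.1 and 14.2 FPKM in the controls and at 14.8, 15.9 and 13.6 FPKM in SETD4 OE. Its groups overlapped (log2 fold change 0.07, SE 0.07, limma adjusted p = 0.417). Sema6b was at 1.92, 2.23 and 2.14 FPKM in the controls and at 2.84, 2.69 and 3.52 FPKM in SETD4 OE and rose (log2 fold change 0.37, SE 0.10, limma adjusted p = 0.0146). Sema6c (chromosome 3, 95067768 to 95081335) was at 0.936, 1.22 and 0.773 FPKM in the controls and at 2.68, 2.42 and 2.58 FPKM in SETD4 OE. It was the ligand with the largest rise among those tested (log2 fold change 0.85, SE 0.11, limma adjusted p = 4.210e-04).

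The semaphorins together gave nearly the same sum in both groups. Their summed FPKM was 91.4, 92.4 and 94.1 in the controls and 92.3, 92.4 and 88.8 in SETD4 OE, with overlapping groups. Sema4b gave 34.7 ± 1.45% of that sum in the controls and 23.4 ± 0.0773% in SETD4 OE, Sema6d 21.2 ± 1.19% and 24.6 ± 0.887%, and Sema5b 7.78 ± 0.212% and 11.8 ± 0.910% (mean ± SD, n = 3 each). There was 1.64 ± 0.160 times as much Sema4b as Sema6d in the controls and 0.953 ± 0.0368 times in SETD4 OE. Libraries of a group were close to each other: over the 21 tested members the SD was a median of 4.82% of the mean in the controls and 6.09% in SETD4 OE. The widest were Sema6c in the controls (23.0%) and Sema3c in SETD4 OE (17.7%).

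**Figure D3:**
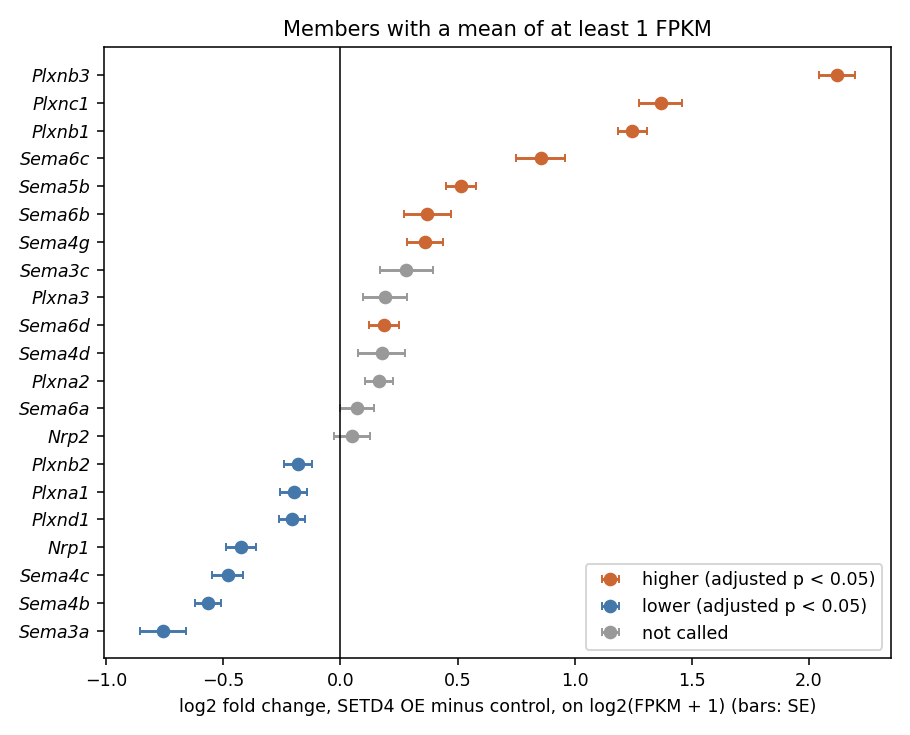
Log2 fold change on the log2(FPKM + 1) scale (SETD4 OE minus control, bars show the SE of the limma fit) of the 21 tested members, in order of size. Plxnb3 (2.12), Plxnc1 (1.37) and Plxnb1 (1.25) stand furthest to the right and Sema3a (-0.76) furthest to the left, and the 6 members that did not pass (grey) lie between them.

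The calls of 11 members were kept in each of 17 other ways of processing in which the gene was tested. These were 7 that rose (Plxnb3, Plxnc1, Plxnb1, Sema6c, Sema5b, Sema6b and Sema4g) and 4 that fell (Sema3a, Sema4b, Sema4c and Nrp1). The other 4 calls, of Plxna1, Plxnb2, Plxnd1 and Sema6d, were of 0.21 or less on the log2 scale and were lost under several of them.

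**Figure D4:**
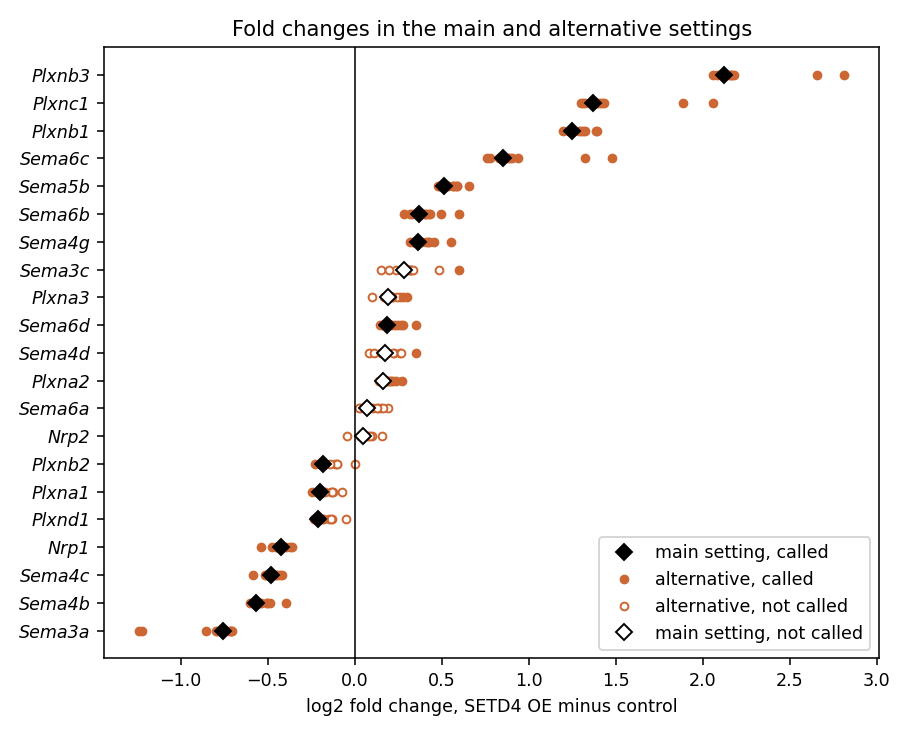
Log2 fold change of the 21 tested members in the main setting (black diamonds) and in other ways of processing (orange circles), filled where the adjusted p is under 0.05 and open where it is not. Symbols are filled throughout for 7 rising and 4 falling members. Open circles are mixed in for Plxna1, Plxnb2, Plxnd1 and Sema6d, which lie nearer to 0 in the main setting. Sema6d reaches 0.353 with quantile normalization, within the ranges of Sema6b and Sema4g.

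Genes that work with semaphorins and plexins were described from a list of 57. Of 44 that were tested 12 rose and 18 fell, 68.2% beside the background of 60.0%, and the median log2 difference was -0.12. Among 8 tested co-receptors and other receptors 5 fell and 1 rose. Flt1, a VEGF receptor that shares ligands with neuropilin-1, fell from 3.43 ± 0.148 to 0.618 ± 0.0638 FPKM (log2 fold change -1.45). Of the adhesion molecules of the L1 family, Chl1 fell from 14.5 ± 1.85 to 4.63 ± 0.183 FPKM and Nrcam from 18.6 ± 0.426 to 11.0 ± 0.331 FPKM. L1cam was below the threshold and higher in SETD4 OE without overlap, at 0.0886 ± 0.0272 and 0.246 ± 0.0750 FPKM on 9 to 36 reads per library (adjusted p = 0.0527 in limma and 8.427e-03 in limma-voom, both without a filter). Itgb1, the beta-1 integrin that Sema7a can bind, fell from 192 ± 4.81 to 115 ± 3.75 FPKM. Of 3 tested growth factors that bind neuropilins 2 fell, and of 5 tested genes of shedding and cleavage 1 rose and 2 fell.

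The intracellular partners split, with 10 of 28 tested higher and 9 lower and a median log2 fold change of 0.07. Of the collapsin response mediators, cytoskeletal proteins that act after Sema3a, Dpysl4 and Dpysl5 rose by 0.62 and 0.69 on the log2 scale. Dpysl3 rose by 0.43, while Crmp1 (0.08, limma adjusted p = 0.258) and Dpysl2 (0.11, limma adjusted p = 0.178) did not pass. Farp1, a guanine exchange factor that binds A plexins, rose from 17.0 ± 0.523 to 27.6 ± 0.371 FPKM. Enah, an actin regulator, Ranbp9, a scaffold protein, and Mical1, an actin-oxidizing enzyme that binds plexins, had log2 fold changes of 0.63, 0.74 and 0.55. The GTPase genes Rap1a and Rap1b, whose products plexins switch off, fell from 37.1 ± 2.40 to 24.4 ± 0.992 FPKM and from 70.8 ± 2.10 to 47.5 ± 3.84 FPKM. Dpysl5 reached the level for testing only through SETD4 OE and Flt1 only through the controls. L1cam, Crmp1, Dpysl2 and Dpysl3 apart, the 12 partner genes named here passed at an adjusted p of at most 1.019e-03 (limma).

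Other marker lists moved as well. Of 9 markers of quiescent stem cells and astrocytes 8 rose, with a sum of 937 to 980 FPKM in the controls and 2547 to 2633 FPKM in SETD4 OE. All 3 tested of 9 pericyte and fibroblast markers rose, from a sum of 4.30 to 4.66 to one of 13.2 to 14.02 FPKM. The 9 markers of neuroblasts and neurons summed to 20.6 to 23.1 and 22.3 to 25.8 FPKM, with 1 of 5 tested higher and 1 lower, and all 4 tested of 5 ependymal markers rose. The part of these lists in the changes of the members was not tested.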

How the data were processed

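RNA-seq libraries of 3 control and 3 SETD4 OE samples were compared. Reads were aligned with HISAT2 2.0.5 to mm39, per the submitters' processing notes. The counter, annotation and strand setting are not given in the sources used here. FPKM per gene and library, with gene length and coordinates, is what the authors deposited. Multiplied by gene length, 100% of the FPKM values were whole multiples of 1 read (tolerance 0.05 reads), which gave read counts. The library size the authors divided by differed from the listed total by -2.68% to -0.630% in the controls and by 3.83% to 5.31% in SETD4 OE.

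Groups were compared on log2(FPKM + 1) over all 12994 genes averaging 1 FPKM or more, with limma 3.58.1 (R 4.3.3, mean-variance trend, two-sided, Benjamini-Hochberg adjustment, threshold 0.05). This scale understates changes of low genes. The fit was tested on simulated reads in which 200 genes were changed, far fewer than were called in the data. It called 75% of the 1.5-fold changes, 100% of the 3-fold changes and 0.0622% of the unchanged genes. The simulation gave every gene the same dispersion (spread beyond read sampling, 0.0028). It also took library sizes equal to the read totals, unlike the authors' sizes. These rates therefore need not hold for the data. Alternatives were other filters, a pseudocount of 0.1, 4 scalings, a replicate block, no trend, limma-voom and leaving out each library, and limma-voom without a filter was added after the data were seen. Members, lists and tests were chosen with earlier results of these data known, and the motifs after values and sequences were seen. One marker result is not reported here. All members are named, and partner genes where called with a log2 difference of at least 0.5 in size. Erg, Pecam1, L1cam, C1qa, P2ry12, Crmp1, Dpysl2 and Dpysl3 were singled out after their values were seen. So were the markers named for being at 0. Promoter windows (RefSeq, GRCm38.p6) were found for 26 of 31 members. Genes overlapping a member all averaged under 1 FPKM; the antisense ones with most reads held 111 (at Sema4c), 60 (at Plxnb1) and 56 (at Plxna1) over all libraries, and reads of such pairs cannot be told apart without strand.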

Additional observations from a re-analysis of the deposited data

How the results depend on the processing

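Over the alternatives for the 21 tested members, 315 log2 differences kept their direction and side of the threshold, 34 lost the call, 17 gained it and 2 reversed. The reversals, both with quantile normalization, were Nrp2 (-0.044) and Plxnb2 (0.0031), neither called there. With a minimum mean of 5 FPKM 8 members were called (4 higher, 4 lower), where 8057 genes were tested rather than 12994. Called members below that mean left the test there, and those that stayed kept their calls. The 15 called members became 12 to 16 when 1 library was left out, with 7 to 10 higher and 5 to 7 lower. Over all 12994 genes 6683 to 7840 were then called. The 7 lower members became 4 with equal sums, with quantile normalization and with limma-voom. The 8 higher members became 15 with limma-voom and no filter, where all 31 members are tested. No falling plexin was called with equal sums, quantile normalization or limma-voom. The 3 rising plexins became 5 without SETD4 OE replicate 3, and also in limma-voom with or without a filter. Over all genes 7790 were called, and 5256 to 9524 under the alternatives.

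Replicate numbers are shared between the groups in the labels, but same-numbered libraries did not deviate together (correlations of -0.0661, -0.229 and 0.0768). Only control replicate 3 correlated best with its own number. With a replicate block 11 members were called, all among the 15, with 7 higher and 4 lower. The calls lost were those of Plxna1 (adjusted p = 0.0678), Plxnb2 (0.0975), Plxnd1 (0.0589) and Sema6d (0.0952, limma). Depth limits the low members: the 10 below the threshold rest on 0 to 229 reads per library.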

Other observations

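Some members lie close to each other in the genome. On chromosome 5 Sema3d, Sema3a and Sema3e follow each other on the same strand, with 536 kb and no other protein-coding gene between Sema3d and Sema3a, and 423 kb and 1 such gene between Sema3a and Sema3e (mm39). In control and SETD4 OE respectively, Sema3d averaged 0.239 ± 0.0352 and 0.552 ± 0.146 FPKM, Sema3a 2.17 ± 0.191 and 0.875 ± 0.125 FPKM, and Sema3e 0.913 ± 0.0280 and 0.462 ± 0.0199 FPKM (mean ± SD, n = 3 each), so the first was higher in SETD4 OE and the other 2 were lower. On chromosome 9 Sema3b and Sema3f are 72.3 kb apart. Sema3b was higher in SETD4 OE without overlap, while the groups of Sema3f overlapped. On the X chromosome Plxnb3 and Plxna3 are 557 kb apart with 23 protein-coding genes between them, and of these members Plxnb3 rose and Plxna3 did not pass. These neighbours were picked after their values were seen.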
